A study of Mus musculus with 9 samples.

Results

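The Sprr2 genes encode the small proline-rich proteins of class 2 and lie side by side on mouse chromosome 3. The 8 paralogs Sprr2b, Sprr2d, Sprr2e, Sprr2f, Sprr2g, Sprr2h, Sprr2i and Sprr2k were taken by gene symbol from a table of 31274 entries, and all 8 were present. They were chosen with their difference between genotypes already known, so their levels are given as a description and no test of that difference is reported for them. A pair of paralogs, Sprr2f and Sprr2g, carried between 97.0% and 100% of the summed Sprr2 signal in every library. In Wnk1d/d (conditional knockout) uteri the mean level of Sprr2f was 107 times and that of Sprr2g 18.0 times the control level. Sprr2b, Sprr2e and Sprr2d were at lower levels with the same direction, Sprr2i was above 0 in 2 libraries, and Sprr2h and Sprr2k were listed at 0 in all 9.

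The libraries are RNA-seq of whole uterus from C57BL/6 mice, and WNK1 is a kinase better known for its part in ion transport. Control mice, Wnk1f/f (n = 4), carry floxed alleles and keep the kinase, and conditional knockout mice, Wnk1d/d (n = 5), carry the same alleles together with Cre driven by the progesterone receptor gene, which removes exon 2. Every uterus was collected on pseudopregnancy day (PPD) 4.5, after mating to vasectomized males, so no embryo was present, and each library comes from a mouse of its own. The age of the mice that were sequenced is not given in the labels. Cre from this driver also acts in the ovary and pituitary, and uterine immune and endothelial cells, which lack the progesterone receptor, keep the intact gene. Wnk1 itself had an FPKM of 43.4 to 47.3 in the Wnk1f/f libraries and of 29.9 to 33.9 in the Wnk1d/d libraries, without overlap (limma adjusted p = 0.00167), and these values cover the whole transcript and not exon 2 alone.

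SPRR proteins are short, proline-rich and glutamine-rich, and transglutaminases crosslink them into the cornified envelope under the membrane of squamous cells such as epidermal keratinocytes. The simple epithelium of the uterus makes no cornified envelope, yet several Sprr2 genes are known there as genes that estrogen raises in the luminal and glandular epithelium. Progesterone normally holds many such estrogen responses down at the time when an embryo could attach.

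The 8 genes span chr3:92316620-92433925 (mm10, annotation of GENCODE M21), which is 117306 bases, all on the plus strand. In that order they are Sprr2b, Sprr2d, Sprr2e, Sprr2f, Sprr2g, Sprr2h, Sprr2i and Sprr2k. Sprr2f lies at chr3:92365187-92366442 and its neighbour Sprr2g at chr3:92373915-92375229. GENCODE lists Sprr2g as a polymorphic pseudogene and RefSeq lists it as a transcribed pseudogene, so its transcript level stands for RNA and not for a protein. Of the members, 7 have an entry in the RefSeq promoter table (GRCm38.p6). Sprr2g has none, so its promoter was not searched. The 220 bases just before the start site are shown for Sprr2f, the paralog with the highest level, for Sprr2e, which was low, and for Sprr2h and Sprr2k, which were listed at 0, so that these paralogs can be read side by side. Capitals mark TGANTCA (the letters AP-1 factors bind), ATTTGCAT (the octamer of POU factors), TATAAA, and GGTCA (the core recognised by estrogen receptors), each on either strand.
Sprr2f, chr3:92364967-92365186, plus strand: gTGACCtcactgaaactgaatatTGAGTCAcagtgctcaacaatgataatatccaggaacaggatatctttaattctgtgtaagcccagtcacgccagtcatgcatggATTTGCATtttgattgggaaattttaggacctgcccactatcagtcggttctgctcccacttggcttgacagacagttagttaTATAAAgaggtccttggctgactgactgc
Sprr2e, chr3:92351923-92352142, plus strand: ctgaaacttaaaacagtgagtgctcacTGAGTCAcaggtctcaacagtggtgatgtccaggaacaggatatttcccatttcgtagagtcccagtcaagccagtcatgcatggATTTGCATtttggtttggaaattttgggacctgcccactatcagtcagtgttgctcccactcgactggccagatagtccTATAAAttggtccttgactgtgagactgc
Sprr2h, chr3:92385465-92385684, plus strand: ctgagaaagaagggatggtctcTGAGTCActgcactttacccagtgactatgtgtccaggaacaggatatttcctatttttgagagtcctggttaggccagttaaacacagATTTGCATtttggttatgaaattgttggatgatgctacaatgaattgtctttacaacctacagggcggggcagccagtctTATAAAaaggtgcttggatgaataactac
Sprr2k, chr3:92432362-92432581, plus strand: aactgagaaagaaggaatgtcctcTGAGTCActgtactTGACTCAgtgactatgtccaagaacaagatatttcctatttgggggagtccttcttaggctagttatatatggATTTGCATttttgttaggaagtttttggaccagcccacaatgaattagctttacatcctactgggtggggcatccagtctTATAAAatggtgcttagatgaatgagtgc

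TATAAA began 29 bases before the start site in each of the 7 promoters, and 13.6% of the 32851 promoters of the same length in the table hold it. TGANTCA was present in all 7, beginning between 193 and 198 bases before the start, against 7.81% of all promoters, and Sprr2k held a second match. ATTTGCAT was also present in all 7, beginning between 108 and 112 bases before the start, against 1.74% of all promoters. All 3 stood together in 16 promoters of the table (0.0487%), and 7 of those 16 were the Sprr2 promoters. The octamer was searched for after the sequences had been read, so its presence in the members is a description of what was seen.

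GGTCA was found in the Sprr2f promoter alone of the 7, as TGACC beginning 219 bases before the start, and 40.5% of all promoters hold these letters. Whether the promoter of Sprr2g, the other abundant paralog, holds them is not known from this search. The full palindromic estrogen response element, GGTCA and TGACC with 3 bases between them, was in none of the 7 and in 0.070% of all promoters. AGGAA, the core of ETS factor sites, was in 7 of 7 but also in 66.7% of all promoters. AACNNGTT, searched for Grainyhead factors, was in none of the 7 and in 4.20% of all promoters, and CACCC, searched for Kruppel-like factors, was in 2 of 7 and in 57.5% of all promoters. These windows hold letters and not measured binding. The TATA, AP-1 and octamer letters were present in the promoter of Sprr2f, at high level, and in those of paralogs at low level and listed at 0. Over the 250 bases upstream, the Sprr2f promoter was 72.6% identical to that of Sprr2e and 57.0% identical to that of Sprr2h.

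The coding parts are also alike, which bears on how well short reads can be assigned. The study sequenced paired reads of 75 bases, and the first 75 coding bases are shown here for the paralogs above 0, with capitals where a base differs from the aligned base of Sprr2f or is inserted (sequences from GENCODE M21).
Sprr2f: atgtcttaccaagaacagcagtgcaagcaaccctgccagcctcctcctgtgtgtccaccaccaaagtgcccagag
Sprr2g: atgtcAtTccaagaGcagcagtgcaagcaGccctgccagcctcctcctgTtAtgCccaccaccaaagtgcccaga
Sprr2b: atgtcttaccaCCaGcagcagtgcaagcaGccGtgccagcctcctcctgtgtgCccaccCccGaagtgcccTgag
Sprr2d: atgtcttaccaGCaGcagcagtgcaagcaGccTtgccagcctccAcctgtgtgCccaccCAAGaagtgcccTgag
Sprr2e: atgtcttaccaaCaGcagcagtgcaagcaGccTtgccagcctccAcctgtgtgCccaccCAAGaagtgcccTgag
Sprr2i: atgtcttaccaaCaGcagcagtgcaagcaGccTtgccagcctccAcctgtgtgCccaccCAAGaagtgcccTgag

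The Sprr2e and Sprr2i stretches hold the same letters throughout, and over the whole coding sequence the pair was 97.0% identical. Identity to the coding sequence of Sprr2f was 90.1% for Sprr2e, 90.0% for Sprr2i, 88.4% for Sprr2g, 81.0% for Sprr2d, 74.1% for Sprr2k, 66.3% for Sprr2b and 63.6% for Sprr2h. Across whole transcripts, no 75-base window of Sprr2f, Sprr2g, Sprr2h or Sprr2k occurred in another annotated gene. Of the Sprr2e windows 5.41% occurred elsewhere, most often in Sprr2i, of the Sprr2b windows 3.94% did, most often in Sprr2a1, and of the Sprr2d windows 0.329% did. Allowing 2 mismatches, the share of windows that resembled another Sprr gene was 10.3% for Sprr2f, 0.173% for Sprr2g, 10.7% for Sprr2d, 19.2% for Sprr2b, 21.3% for Sprr2e and 23.0% for Sprr2i. Reads that match without error can thus be assigned to Sprr2f or Sprr2g, and nearly all to Sprr2d. The values of Sprr2b, Sprr2e and Sprr2i, the members with the largest shares, are less certain. How the authors split reads between near-identical genes is not given in the sources used here. In Wnk1d/d, Sprr2f was at 238 to 1168 FPKM, against 0.06 to 0.95 FPKM for Sprr2d and 0.62 to 4.15 FPKM for Sprr2e. A small share of misassigned Sprr2f reads would thus weigh on the low paralogs, Sprr2d among them. Whether such reads enter their values was not tested.

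Levels are given as FPKM, the fragments of a gene scaled to its exon length and to the size of the library, which is a level per length and so can be set side by side between genes. The libraries were alike in the median log2(FPKM + 1) of the tested genes (3.79 to 3.82), and between 19253 and 20063 entries were above 0 in each. In Wnk1d/d replicate 4 a single entry held 70.3% of the summed FPKM, and in Wnk1f/f replicate 4 the liver transcript Alb stood at 77.7 FPKM. The summed Sprr2 difference was 5.44 with all libraries on the log2(FPKM + 1) scale, 5.42 without the former and 5.66 without the latter. Depth is not stated in FPKM, so no counting interval is given, and a value of 0 is reported only as listed.

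Sprr2f was the most abundant paralog in the Wnk1d/d uterus. Its FPKM was 4.20, 6.72, 6.00 and 5.35 in Wnk1f/f replicates 1 to 4. In Wnk1d/d replicates 1 to 5 it was 1168, 274, 778, 523 and 238. Every Wnk1d/d library stood above every Wnk1f/f library, and the lowest of the former was 35.4 times the highest of the latter. The mean was 5.57 ± 1.07 (SD, n = 4) in Wnk1f/f and 596 ± 387 (SD, n = 5) in Wnk1d/d, a difference of 6.27 in mean log2(FPKM + 1). By level, Sprr2f stood between places 9924 and 11391 of the 31274 entries in the control libraries and between places 36 and 279 in the knockout libraries.

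Sprr2g, the annotated pseudogene beside it, was the other abundant transcript. Its FPKM was 2.72, 12.3, 10.4 and 19.5 in Wnk1f/f replicates 1 to 4, so replicate 1 was low and replicate 4 high. In Wnk1d/d replicates 1 to 5 it was 272, 156, 205, 232 and 143. The genotypes again did not overlap, and the lowest Wnk1d/d library was 7.34 times the highest Wnk1f/f library. The mean was 11.2 ± 6.89 (SD, n = 4) against 202 ± 53.5 (SD, n = 5), a difference of 4.25 in mean log2(FPKM + 1). Among the entries Sprr2g stood between places 5475 and 12435 in the control libraries and between places 240 and 569 in the knockout libraries.

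Sprr2b, the first of the 8 along the chromosome, was listed at 0, 0.51, 0 and 0.17 FPKM in the Wnk1f/f libraries. In Wnk1d/d replicates 1 to 5 its FPKM was 32.1, 3.36, 17.4, 4.43 and 1.91. The genotypes did not overlap, and the lowest Wnk1d/d library was 3.75 times the highest Wnk1f/f library. Sprr2e was listed at 0, 0.07, 0 and 0.05 FPKM in Wnk1f/f and at 4.15, 0.62, 3.27, 1.13 and 1.69 FPKM in Wnk1d/d. Here too the groups were apart, although part of the Sprr2e windows is shared with Sprr2i.

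Sprr2d was above 0 in 1 control library, at 0.09 FPKM, and at 0.87, 0.06, 0.32, 0.29 and 0.95 FPKM in the 5 Wnk1d/d libraries. These ranges overlapped, because Wnk1d/d replicate 2 lay under Wnk1f/f replicate 4. Sprr2i was listed at 0 in all Wnk1f/f libraries and in 3 Wnk1d/d libraries, and at 0.13 and 0.12 FPKM in Wnk1d/d replicates 1 and 3, the same 2 libraries in which Sprr2e was highest. Sprr2h and Sprr2k were listed at 0 in all 9 libraries, although none of their 75-base windows occurred in another gene. Among all entries, 29.8% were listed at 0 throughout.

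Of the 8 members 4 (Sprr2b, Sprr2e, Sprr2f and Sprr2g) passed the filter, by which the mean FPKM of either genotype had to exceed 1, and Sprr2b and Sprr2e passed it through the Wnk1d/d group alone. The same 4 were the members whose genotypes did not overlap with the knockout higher, and 9.27% of the 14728 tested genes had that pattern. Since the members were chosen on this contrast, nothing is read from that count.

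**Figure D1:**
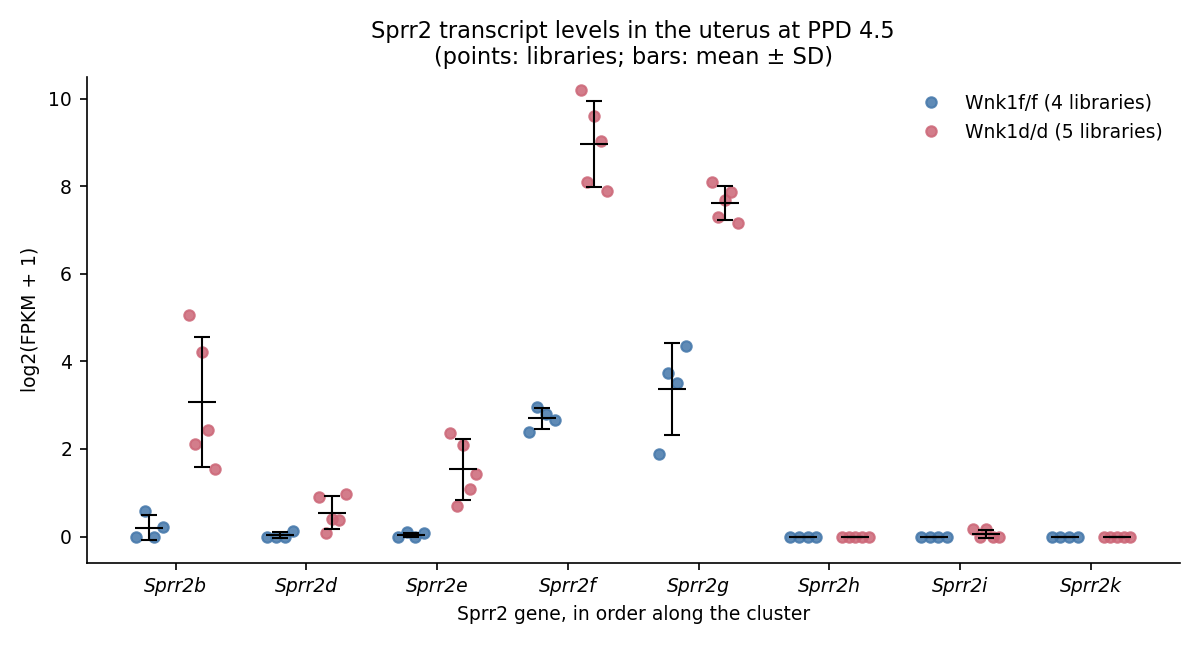
Level of each Sprr2 paralog as log2(FPKM + 1) on the vertical axis, with the 8 genes in cluster order on the horizontal axis. Points are libraries of Wnk1f/f (blue, n = 4) and Wnk1d/d (red, n = 5), and bars are the mean ± SD of the log2 values. Sprr2f and Sprr2g stand far above the other paralogs in Wnk1d/d, and Sprr2h and Sprr2k lie at 0 in all 9 libraries.

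The order of the paralogs was the same in all 5 Wnk1d/d libraries, with Sprr2f above Sprr2g, Sprr2g above Sprr2b, Sprr2b above Sprr2e, Sprr2e above Sprr2d and Sprr2d above Sprr2i. Between libraries the ranges of neighbours in this order mostly overlapped, as for Sprr2f (238 to 1168 FPKM) and Sprr2g (143 to 272 FPKM). The exception was the step from Sprr2g to Sprr2b, which did not exceed 32.1 FPKM. That step held across libraries, and the others only within them. In Wnk1f/f the order at the top was the opposite in 3 of 4 libraries, with Sprr2g above Sprr2f.

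The make-up of the Sprr2 signal was not the same in the genotypes. The ratio of Sprr2f to Sprr2g FPKM was 1.54, 0.545, 0.579 and 0.275 in Wnk1f/f replicates 1 to 4. In Wnk1d/d replicates 1 to 5 it was 4.29, 1.76, 3.80, 2.25 and 1.66. The ratios did not overlap, although Wnk1f/f replicate 1 (1.54), the library with the lowest Sprr2g, lay close to Wnk1d/d replicate 5 (1.66). Sprr2f made up 21.3% to 60.7% of the summed Sprr2 FPKM in the control libraries and 61.7% to 79.0% in the knockout libraries. Sprr2b made up at most 2.60% and 2.17%, and the share of Sprr2e was under 1% in every library, with a highest value of 0.438%.

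**Figure D2:**
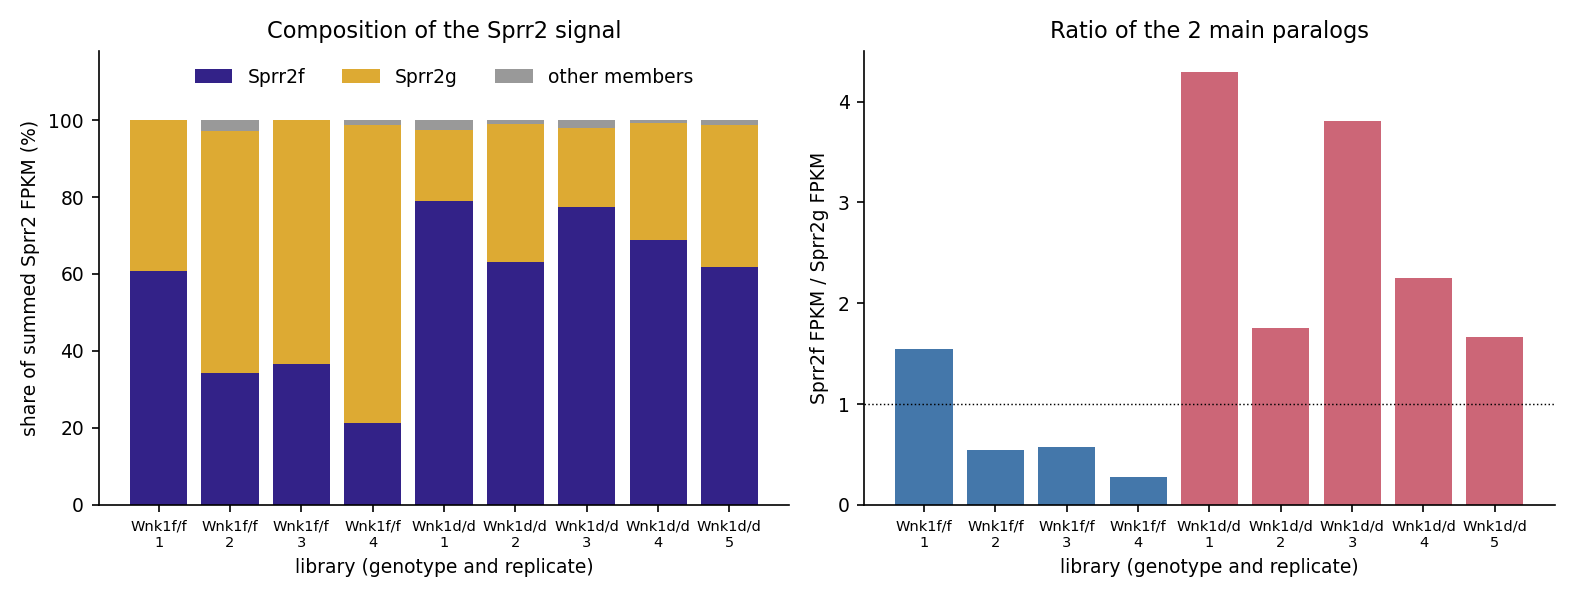
Left, share of the summed Sprr2 FPKM (%) taken by Sprr2f, Sprr2g and the other members in each of the 9 libraries. Right, ratio of Sprr2f to Sprr2g FPKM in the same libraries, with Wnk1f/f in blue, Wnk1d/d in red and a dotted line at 1. Sprr2g is the larger part in 3 of 4 control libraries and Sprr2f in all 5 knockout libraries.

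The spread between mice also differed by paralog. In Wnk1d/d the highest library was 4.91 times the lowest for Sprr2f, 1.90 times for Sprr2g, 16.8 times for Sprr2b, 6.69 times for Sprr2e and 15.8 times for Sprr2d. In Wnk1f/f it was 1.60 times for Sprr2f and 7.16 times for Sprr2g, so Sprr2f was the steadier of the pair in controls and the more variable in knockouts. Wnk1d/d replicate 1 was the highest for Sprr2b, Sprr2e, Sprr2f, Sprr2g and Sprr2i, and Sprr2d was the exception, with replicate 5 highest. Sprr2b and Sprr2f had the same order of libraries in full (replicates 1, 3, 4, 2, 5), and Sprr2g differed from it in that replicate 4 stood above replicate 3.

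Summed over the 8 paralogs, FPKM was 6.92, 19.6, 16.4 and 25.1 in Wnk1f/f replicates 1 to 4 and 1478, 434, 1004, 760 and 386 in Wnk1d/d replicates 1 to 5. The highest of the 9 libraries stood at 214 times the lowest. The difference of means on the log2(FPKM + 1) scale was 5.44, and it lay between 5.09 and 5.67 when each library was left out in turn.

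Other Sprr genes of the same chromosomal cluster were also measured. Sprr2a1 was listed at 0 in all Wnk1f/f libraries and at 6.57, 1.57, 6.67, 3.09 and 1.48 FPKM in Wnk1d/d, and Sprr2a2 did not exceed 0.87 FPKM. Of their 75-base windows 94.3% and 94.6% occur in another gene, so the values of these 2 genes cannot be taken apart. Sprr1a, a small proline-rich gene of another class at the far end of the cluster, was at 0.37, 0.12, 0.11 and 0.17 FPKM in Wnk1f/f and at 5.67, 1.96, 2.94, 2.25 and 2.65 FPKM in Wnk1d/d. The genotypes did not overlap, with means of 0.193 and 3.09 FPKM. Sprr1a and Sprr2a1 passed the filter through the Wnk1d/d group alone, so no test is given for them. Sprr1b, Sprr2j-ps and Sprr4 were listed at 0 throughout, and Sprr3 was at 0.03 FPKM in 1 library and at 0 in the other 8.

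**Figure D3:**
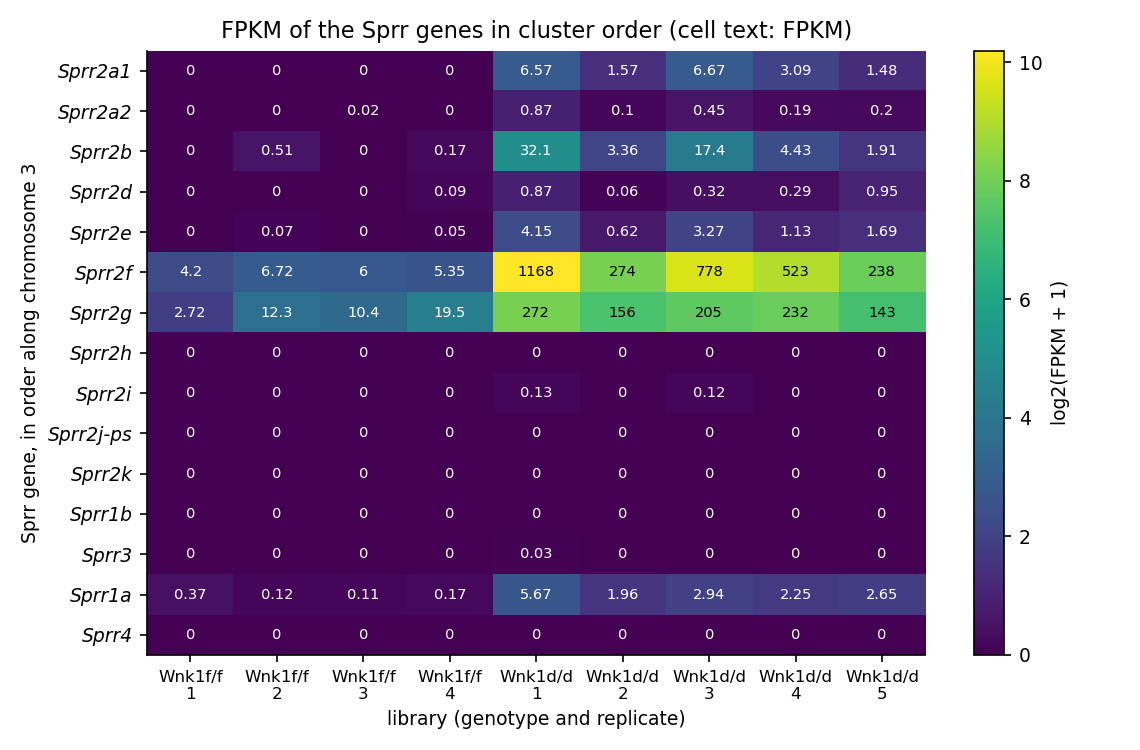
Heat map of the 15 Sprr genes of the table, in their order along chromosome 3 from top to bottom, against the 9 libraries, with colour as log2(FPKM + 1) and the FPKM written in each cell. The signal sits mainly at Sprr2f and Sprr2g, with lower levels in Wnk1d/d at Sprr2a1, Sprr2b and Sprr2e before them. It falls off at Sprr2h to Sprr2k, which are at 0 or close to it, and returns at a low level at Sprr1a.

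The Sprr genes belong to the epidermal differentiation complex, a stretch of chromosome 3 with loricrin, filaggrin, late cornified envelope and S100 genes. To see whether the difference extended along it, the calls of the fit across all genes were counted, where a call is a limma adjusted p under 0.05 with genotype means that differ by 1.5 times or more. Among all 14728 tested genes 5.09% were called higher and 5.18% lower in Wnk1d/d, and the median difference was 0.00. Of 54 neighbours with an entry, 10 were tested, 1 was called higher and 1 lower, and their median difference was 0.03 on the log2(FPKM + 1) scale. The gene called higher was Sprr1a, which was tested only because it is high in Wnk1d/d, so this count is no support for a rise. The gene called lower was S100a7a, an S100 protein gene, with 6.45 to 7.81 FPKM in Wnk1f/f and 2.34 to 4.57 FPKM in Wnk1d/d (limma adjusted p = 0.00496). Apart from the Sprr genes, 25 of 50 neighbours were listed at 0 in every library. Ivl, which encodes the envelope protein involucrin, did not exceed 0.09 FPKM, and Lor, which encodes loricrin, was at 0.97 ± 0.30 (SD, n = 4) in Wnk1f/f and 1.10 ± 0.23 (SD, n = 5) in Wnk1d/d. Lor was not called, and it entered the test through the Wnk1d/d group alone, so no test is given for it.

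Cornified envelopes also need crosslinking enzymes and anchoring proteins. Of 28 such genes with an entry, 13 were tested, 3 were called higher and none lower, with a median difference of 0.13. Those called were Tgm2, the tissue transglutaminase, Anxa1, an annexin that transglutaminases can crosslink, and Dmkn, which encodes the secreted protein dermokine. Tgm2 was at 292 to 309 FPKM in Wnk1f/f and at 440 to 535 FPKM in Wnk1d/d (limma adjusted p = 0.00209). Anxa1 was at 114 to 170 FPKM and at 237 to 359 FPKM (limma adjusted p = 0.00697), and Dmkn was low and overlapping, at 0.14 to 0.60 FPKM and 0.49 to 1.99 FPKM. Dmkn entered the test through the Wnk1d/d group alone, with means of 0.363 and 1.37 FPKM, so no test is given for it and 2 of the 3 calls, Tgm2 and Anxa1, do not depend on that filter. Tgm2 lost its call under quantile normalization, where its log2 difference was 0.47. Tgm1, the keratinocyte enzyme, stayed near the lower limit of the test, at 0.46 to 0.79 FPKM and 0.70 to 1.67 FPKM, and was not called. It too entered the test through the Wnk1d/d group alone, with means of 0.59 and 1.17 FPKM, so no test is given for it. At an unadjusted p under 0.05, 5 genes of the list, Dmkn and Tgm1 among them, were higher and 0 lower, and 1 was called lower without Wnk1d/d replicate 2. Dmkn lost its call without any of 5 libraries, Wnk1f/f replicate 2 or 4 or Wnk1d/d replicate 1, 3 or 4.

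The part of Sprr2 as estrogen-induced epithelial genes was set beside a list of 20 other genes that estrogen is known to raise in the uterus. All 20 were tested, 13 were called higher and 1 lower, and the list's median difference was 1.20 against 0.00 over all genes. The list was chosen with earlier results of these data known, so these numbers are a description and no support is read from them. Ltf, the iron-binding secretory protein lactotransferrin, was at 23.2 to 46.8 FPKM in Wnk1f/f and at 300 to 1617 FPKM in Wnk1d/d, a rise of 4.23 ± 0.46 (SE) on the log2 scale (limma adjusted p = 0.00167). Lcn2, which encodes lipocalin 2, rose by 3.16 ± 0.32 (SE), from 20.4 to 38.8 FPKM in the control libraries to 143 to 384 FPKM in the knockout libraries (limma adjusted p = 0.00144). Padi2, a peptidylarginine deiminase, rose by 2.05 ± 0.19 (SE), and Gjb2, a gap junction gene, by 1.81 ± 0.42 (SE). Among the 13, Cftr, a chloride channel gene, entered the test through the Wnk1d/d group alone, with means of 0.98 and 2.63 FPKM. Clca3, which was not called but counts in the median, also entered through that group alone, with means of 0.07 and 14.5 FPKM. On the log2(FPKM + 1) scale the Sprr2f difference was 6.27 and that of Sprr2g 4.25, with Ltf at nearly the value of Sprr2g.

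The list was not uniform. Igf1, a growth factor made by the stroma, was the gene called lower, with a difference of -0.57 (limma adjusted p = 0.00430), and its ratio of means, 0.666, lay at the limit, so that no gene of the list was called lower without Wnk1f/f replicate 2 or 4 or Wnk1d/d replicate 1, 3 or 4. Pgr, the progesterone receptor gene, differed by 0.11 and was not called (limma adjusted p = 0.656). Muc1, an apical mucin, was at 8.63 ± 2.95 (SD, n = 4) FPKM in Wnk1f/f and 20.4 ± 12.0 (SD, n = 5) FPKM in Wnk1d/d and was not called (limma adjusted p = 0.0800). Ltf had its highest value in Wnk1d/d replicate 1, as the Sprr2 sum did, but its lowest in replicate 4 (300 FPKM), where the Sprr2 sum was 760 FPKM.

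Of 14 tested genes that progesterone raises in the uterus, none was called higher and 3 lower, with a median difference of 0.02. Il13ra2, an interleukin 13 receptor chain, was at 27.1 to 43.1 FPKM in Wnk1f/f and 15.9 to 21.8 FPKM in Wnk1d/d (limma adjusted p = 0.00744). Fst, which encodes the activin antagonist follistatin, had means of 23.3 and 13.3 FPKM (limma adjusted p = 0.0199), and Calca, the calcitonin gene, means of 3.08 and 1.49 FPKM (limma adjusted p = 0.0261). A further 3 genes passed the adjusted p and not the ratio. At an unadjusted p under 0.05, 1 gene of the list was higher and 6 lower, without Wnk1d/d replicate 2 the calls were 1 higher and 5 lower, and without Wnk1f/f replicate 3 1 was called higher. Calca lost its call without Wnk1f/f replicate 1, 2 or 3 or Wnk1d/d replicate 4. Ihh, the epithelial hedgehog ligand, was at 17.0 FPKM in Wnk1f/f and 20.9 FPKM in Wnk1d/d and was not called (limma adjusted p = 0.757).

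**Figure D4:**
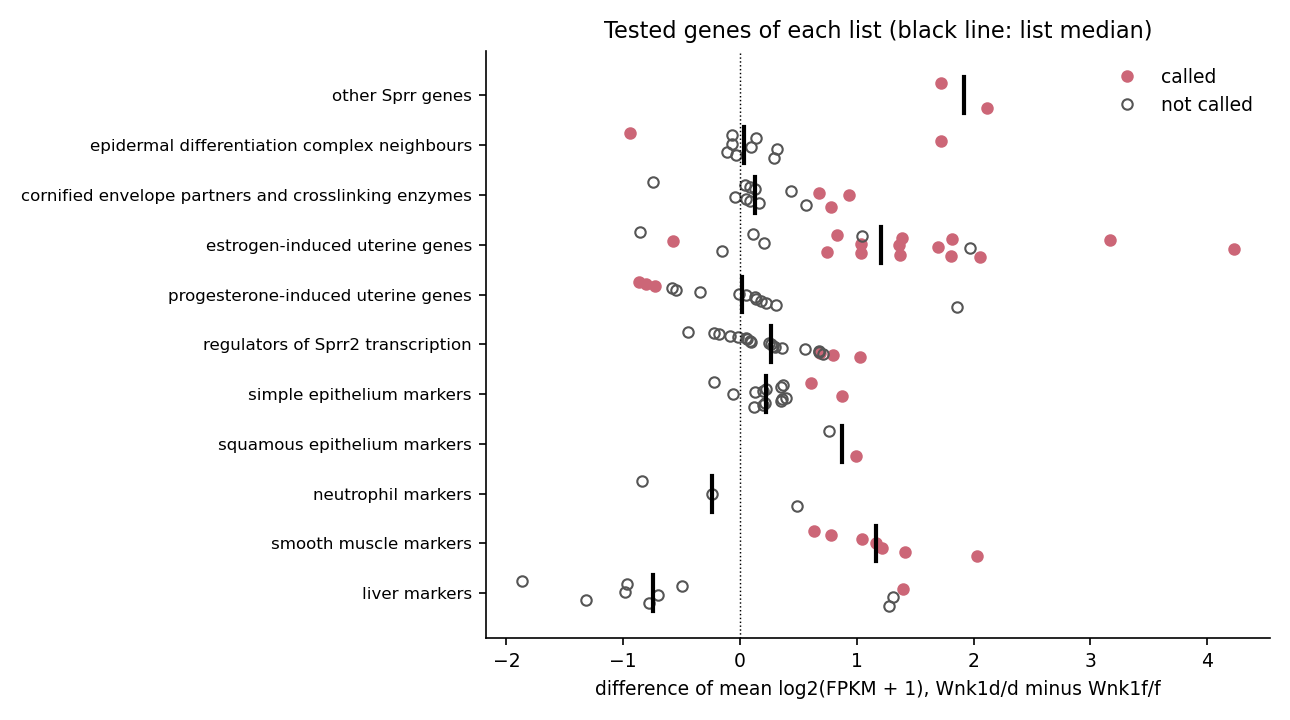
Difference of mean log2(FPKM + 1), Wnk1d/d minus Wnk1f/f, on the horizontal axis for every tested gene of each list, with the list names on the vertical axis. Filled red points are called genes, open points are genes not called, and black lines are list medians. The estrogen-induced list has its median at 1.20 and the epidermal differentiation complex list at 0.03.

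Transcription factors known or proposed to act on Sprr2 promoters were examined as a further list of 25 genes, of which 21 were tested. Of these 3 were called higher and none lower, with a median difference of 0.26. Elf3, an epithelial ETS factor, was at 16.2 to 37.9 FPKM in Wnk1f/f and 36.2 to 76.6 FPKM in Wnk1d/d, so the groups overlapped (limma adjusted p = 0.0321). Ehf, another epithelial ETS factor, was at 20.7 to 29.3 FPKM and 34.1 to 61.4 FPKM (limma adjusted p = 0.0204), and Grhl2, a Grainyhead factor, at 7.57 to 13.99 FPKM and 14.8 to 22.0 FPKM (limma adjusted p = 0.0417). A further 2 genes passed the adjusted p and not the ratio, Ovol1 higher (limma adjusted p = 0.0483) and Klf6 lower (limma adjusted p = 0.00529). At an unadjusted p under 0.05, 6 of the 21 were higher and 1 lower. The number called higher fell to 0 without Wnk1f/f replicate 1 or without Wnk1f/f replicate 4, and to 1 without Wnk1d/d replicate 1 or without Wnk1d/d replicate 3.

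Of the factors that recognise the letters shared by the promoters, none of the 6 tested AP-1 genes of the list (Fos, Fosb, Fosl2, Jun, Junb and Jund) was called. Fosb entered the test through the Wnk1d/d group alone, with means of 0.63 and 1.85 FPKM. Fos, an AP-1 component, was at 5.89 to 9.07 FPKM in Wnk1f/f and 5.84 to 27.1 FPKM in Wnk1d/d (limma adjusted p = 0.236), and Jun, its partner, at 46.5 to 69.0 FPKM and 43.0 to 74.3 FPKM (limma adjusted p = 0.686). Pou2f3, an octamer-binding factor of keratinocytes, did not exceed 0.45 FPKM and was not tested. Esr1, the estrogen receptor, was at 34.5 to 47.6 FPKM and 43.7 to 57.2 FPKM (limma adjusted p = 0.128), and Klf4, a Kruppel-like factor, at 19.6 to 28.8 FPKM and 27.2 to 51.3 FPKM (limma adjusted p = 0.0622). The other Kruppel-like factors tested went the other way. Klf6 had means of 22.6 FPKM in Wnk1f/f and 16.4 FPKM in Wnk1d/d, without overlap, and Klf5 means of 13.8 and 11.6 FPKM (limma adjusted p = 0.255). Neither was called.

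Whole uterus holds several cell types, and in such samples more cells of a type and more RNA per cell cannot be told apart. Simple epithelium markers were high in every library, with a summed level of 2417 to 3227 FPKM in Wnk1f/f and 2554 to 4366 FPKM in Wnk1d/d. Of the 15 markers 2 (Krt7 and Cldn7) were called higher and none lower, with a median difference of 0.22, and at an unadjusted p under 0.05 the counts were 3 and 0. The count called higher was 0 without Wnk1d/d replicate 1 or 3 and 1 without any other single library except Wnk1d/d replicate 5. It was also 0 with no filter on low values, under quantile normalization, with the replicate number as a block and at a ratio of 2. Epcam, an epithelial adhesion molecule, was at 125 ± 11.8 (SD, n = 4) and 146 ± 10.8 (SD, n = 5) FPKM (limma adjusted p = 0.0872). The highest sum of these markers was 1.81 times the lowest over the 9 libraries, and their part in the Sprr2 difference was not tested.

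Most markers of squamous epithelium, the usual site of Sprr2 expression, were at low levels, and Krt10 was an exception. Of 17 such genes 12 were under 1 FPKM in every library and 2 were tested, with Calml3 called higher and Krt10 not called, and 2 genes called higher without Wnk1d/d replicate 2. Krt5, a basal keratin, was at 0.07 to 0.15 FPKM in Wnk1f/f and 0.28 to 0.50 FPKM in Wnk1d/d. Krt14, its partner, was at 0.07 to 0.35 FPKM and 0.44 to 1.46 FPKM, whereas Trp63, a squamous lineage factor, was at 0.37 to 1.03 FPKM in Wnk1f/f and lower, at 0.07 to 0.35 FPKM, in Wnk1d/d. The summed level of the list was 7.74 to 19.3 FPKM and 14.5 to 40.7 FPKM, and its part in the Sprr2 difference was not tested.

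Smooth muscle markers differed with genotype as well. All 7 were called higher, and 4 without Wnk1f/f replicate 2 or 4 or Wnk1d/d replicate 3, 4 or 5. The count was also 4 with no filter on low values and 0 with the replicate number as a block. Their sum was 2968 to 6681 FPKM in Wnk1f/f and 7491 to 14104 FPKM in Wnk1d/d, and Actg2, the enteric smooth muscle actin, had a ratio of means of 3.84 (limma adjusted p = 0.00670). Within Wnk1d/d the smooth muscle sum was lowest in replicate 2 (7491 FPKM) and highest in replicate 4 (14104 FPKM), whereas the Sprr2 sum was lowest in replicate 5 (386 FPKM) and highest in replicate 1 (1478 FPKM). Of 11 neutrophil markers with an entry, 3 were tested and none was called by limma, with 1 higher and 0 lower at an unadjusted p under 0.05 and 1 called higher without Wnk1d/d replicate 2. The gene higher at the unadjusted p entered the test through the Wnk1d/d group alone, with means of 0.89 and 1.7 FPKM. The summed neutrophil level was 3.12 to 10.3 FPKM and 4.81 to 8.64 FPKM, and S100a9, which lies in the same complex as the Sprr genes, did not exceed 3.49 FPKM. Of 10 liver markers 1 (Hp) was called higher, none was called lower (2 higher and 1 lower at an unadjusted p under 0.05), and the counts were 3 higher without Wnk1f/f replicate 4 and 1 lower without Wnk1f/f replicate 2, with sums of 49.6 to 262 FPKM and 187 to 203 FPKM. The part of the smooth muscle markers in the Sprr2 difference was not tested.

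**Figure D5:**
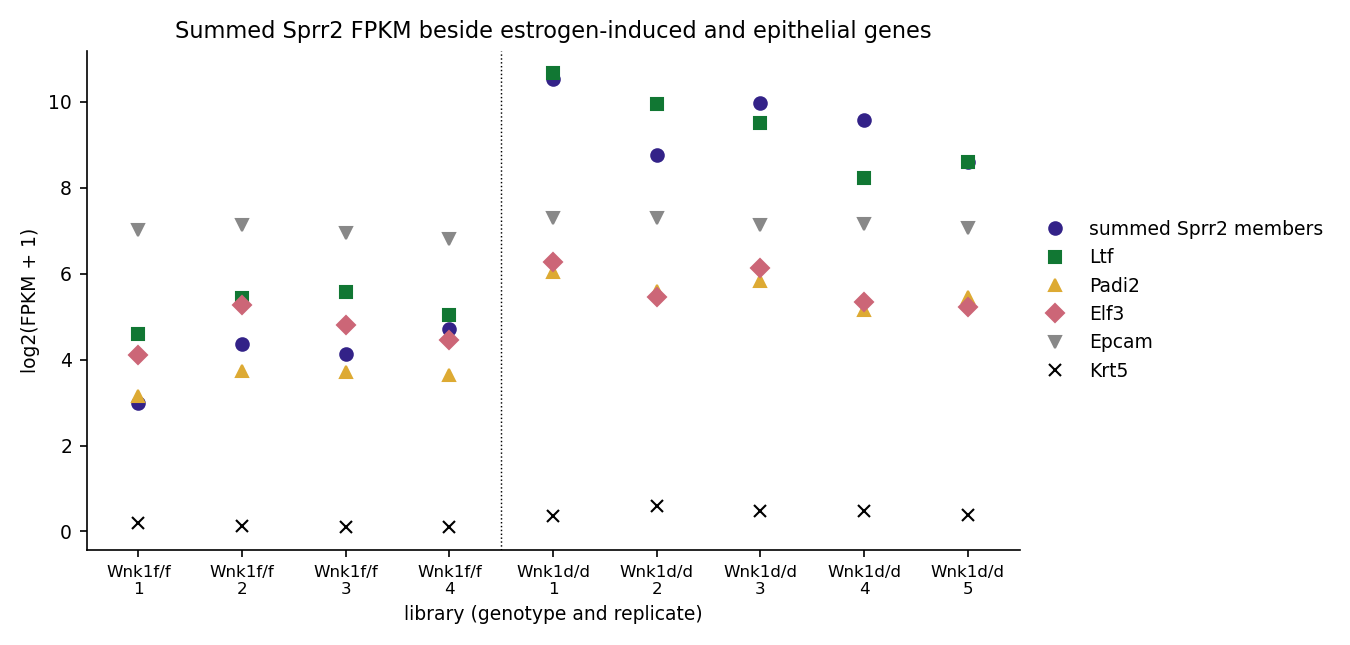
Summed Sprr2 FPKM with Ltf, Padi2, Elf3, Epcam and Krt5 as log2(FPKM + 1) on the vertical axis in each of the 9 libraries, with a dotted line between Wnk1f/f and Wnk1d/d. The Sprr2 sum lies below Epcam in all 4 control libraries and above it in all 5 knockout libraries, and Krt5 stays close to 0.

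The genes most like the Sprr2 sum were sought over 14722 tested genes outside the Sprr family, by Pearson r of log2(FPKM + 1) over the 9 libraries, given as a description because the libraries share a genotype split. The highest were Ier3, an early response gene (r = 0.992), Alpl, tissue alkaline phosphatase (r = 0.984), Sephs2, a selenium enzyme gene (r = 0.982), Padi2 (r = 0.980) and Chst11, a chondroitin sulfotransferase (r = 0.980). Alpl was at 1.94 to 3.86 FPKM in Wnk1f/f and 19.7 to 40.2 FPKM in Wnk1d/d. With deviations from the genotype means in place of levels, the nearest were Slc15a4 (r = 0.982), Vti1a (r = 0.976), Trmt5 (r = 0.969), AK150172 (r = 0.919) and Usp27x (r = 0.906), and none of these 5 was called between the genotypes, although AK150172, at 0.48 to 0.86 and 0.98 to 1.39 FPKM, was called with no filter on low values or without limma's trend. Padi2 alone of these 10 genes was on the estrogen-induced list. The 5 nearest by deviations are the highest of 14722 genes over 9 libraries, and how high r would run by chance was not tested. Some of them varied little, with Vti1a at 9.68 to 10.78 FPKM and Trmt5 at 11.71 to 13.89 FPKM over all libraries. AK150172 entered the test through the Wnk1d/d group alone, with means of 0.71 and 1.14 FPKM.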

How the data were processed

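RNA-seq of whole uterus from 4 Wnk1f/f and 5 Wnk1d/d mice at PPD 4.5 was analysed from the deposited FPKM table. The authors filtered 75-base paired reads on quality, aligned them to mm10 with TopHat2 2.0.4 and computed FPKM with Cufflinks (2.0.2 per the submitters' processing notes); the gene annotation is not given in the sources used here, and libraries were not pooled. The members, gene lists and tests were chosen with earlier results of these data known.

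The 14728 genes whose mean FPKM exceeded 1 in either genotype were tested on log2(FPKM + 1) with limma 3.58.1 in R 4.3.3 (lmFit, eBayes with trend), with Benjamini-Hochberg adjustment over all of them. A call needed an adjusted p below 0.05 and means that differed by 1.5 times or more, which are the study's limits. Fold changes on this scale understate those of low genes. Depth is unknown from FPKM. Named genes were the members, other Sprr genes, Wnk1, up to 4 called genes per list by size of difference, members of a list whose level limits a statement, and the 5 nearest genes by each correlation. Further genes of the lists (Igf1, Pgr, Muc1, Ihh, Fos, Jun, Esr1, Klf4, Klf5, Klf6, Ovol1, Tgm1, Lor, Cftr, Clca3, Epcam and Krt10) were named after their values were seen. Sequences came from GENCODE M21 and the RefSeq promoter table and were handled with Biopython 1.88 in Python 3.11.15. Alternatives were other pseudocounts, filters, scalings and limma settings, a replicate block, a ratio of 2, and leaving out each library.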

Additional observations from a re-analysis of the deposited data

Results flagged for a closer look

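In 83 groups of 4 or 5 libraries with any spread, the gap from an end library to the nearest other was taken as a share of the range. In 5 groups this share exceeded Dixon's 95% limit. For normally spread values, chance alone flags about 1 group in 20. A group with a single library above 0 is always flagged, so that rate does not hold for Sprr2d, Sprr2a2 and Sprr3 here. Sprr2d was at 0.09 FPKM in Wnk1f/f replicate 4 and listed at 0 in the other 3 control libraries. Sprr2a2 was at 0.02 FPKM in Wnk1f/f replicate 3 and listed at 0 in the other 3. Sprr3 was at 0.03 FPKM in Wnk1d/d replicate 1 and listed at 0 in the other 4 knockout libraries. Sprr1a was at 5.67 FPKM in Wnk1d/d replicate 1 against 1.96 to 2.94 in the other 4. Anxa1 was at 358.62 FPKM in Wnk1d/d replicate 1 against 237 to 266 in the other 4. That library also held the highest Sprr2b, Sprr2e, Sprr2f and Sprr2g values.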

How the results depend on the processing

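The summed Sprr2 difference of 5.44 kept its direction and stayed within the replicate spread with a pseudocount of 0.1 (5.53), median scaling (5.45), quantile normalization (5.39) and each library left out. With the pseudocount of 0.1 the differences of low paralogs were larger, at 5.14 for Sprr2b, 3.89 for Sprr2e, 2.04 for Sprr2d and 0.47 for Sprr2i, which follows from the smaller constant. Replicate numbers name different mice, and deviations of same-numbered libraries correlated between -0.27 and 0.02, so they share only a number. With the replicate block as a term, 132 genes were called higher and 86 lower across all genes, 5 estrogen-induced genes higher and 0 lower, 0 epidermal differentiation complex neighbours lower, 1 cornified envelope gene higher, 0 progesterone-induced genes lower and 0 regulators higher, and 0 simple epithelium, squamous, smooth muscle and liver markers were called higher. With a ratio of at least 2, 332 genes were called higher and 218 lower, and the lists gave 1 cornified envelope gene higher, 0 estrogen-induced genes lower, 1 progesterone-induced gene lower and 1 regulator higher. Sprr1a dropped out of the neighbours under the filter of 5 FPKM, leaving 0 called higher. Median scaling left 0 estrogen-induced genes lower, quantile normalization gave 5 progesterone-induced genes lower, and no filter left 1 regulator higher. Among the marker lists, no filter gave 0 simple epithelium, 4 smooth muscle, 3 squamous and 1 neutrophil marker higher, quantile normalization and a ratio of 2 gave 0 simple epithelium markers, and the filter of 5 FPKM gave 0 squamous markers. With each library left out, all-gene calls ranged from 520 to 866 higher and from 499 to 1004 lower, the lowest being without Wnk1d/d replicate 3. Over the same omissions, cornified envelope genes called lower ranged from 0 to 1 (1 without Wnk1d/d replicate 2), estrogen-induced genes higher from 9 to 13 and lower from 0 to 1, progesterone-induced genes higher from 0 to 1 and lower from 2 to 5 (5 without Wnk1d/d replicate 2), and regulators higher from 0 to 3. Trmt5, which was not called, ranged from -0.012 to 0.046 over the omissions and was below 0 without Wnk1f/f replicate 1 or without Wnk1d/d replicate 1. Except where the alternative's own construction shows it, the cause was not tested. Depth limits cannot be stated from FPKM.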
